A study of Homo sapiens with 8 samples.

Results

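Zinc response genes were followed in 8 RNA sequencing libraries from Ishikawa, a cell line long established from a human endometrial adenocarcinoma. The set held 7 genes, MT1E, MT1F, MT1G, MT1X, MT2A, MTF1 and SLC30A1, taken by symbol from the 26364 rows of the count table. The groups, of 2 libraries each, were dexamethasone with estradiol (the combination, Dex + E2), dexamethasone alone (Dex), estradiol alone (E2) and vehicle (DMSO). Dexamethasone, a synthetic agonist of the glucocorticoid receptor, was given at 100 nM, and estradiol, an agonist of the estrogen receptor, at 10 nM. The sample labels give 8 hr of treatment, whereas the treatment protocol of all samples gives 1 hr, so the time is uncertain. All groups were kept in steroid-depleted serum without phenol red, and the labels name no added metal. Only 1 cell line was used. The labels do not say whether replicate libraries stem from different cultures, and the spread behind the p-values may be technical.

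Metallothioneins are small, cysteine-rich cytosolic proteins that bind zinc and copper and buffer their free concentration. Their genes lie in a cluster on chromosome 16. When free zinc rises, the zinc-finger transcription factor MTF1 binds metal response elements in their promoters and in that of SLC30A1, which encodes the zinc exporter of the plasma membrane (ZNT1). Glucocorticoids are classical inducers of metallothionein genes in many tissues, and metallothionein levels in the endometrium are known to vary with the menstrual cycle.

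SLC30A1 was about 2-fold higher wherever estradiol was present, while the mean levels of MT2A, MT1X and MT1G were highest in cells given dexamethasone alone. Of the 7 genes, 6 passed the expression filter and were tested, and 1, MT1E, had 0 counts in every library. Calls were made across 14201 genes with the quasi-likelihood test of edgeR, at an adjusted p under 0.05. In this fit SLC30A1 was called higher with estradiol, with the combination against DMSO and with the combination against dexamethasone, and MT1X was called higher with dexamethasone. MTF1 was called in none of the 6 contrasts by edgeR, DESeq2 or limma-voom, which called 0.0211% to 3.34% of all genes per contrast. For MTF1, 1 of the 6 had an unadjusted p under 0.05 by edgeR. It was the combination against dexamethasone, where 16.7% of all genes had one.

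The libraries held between 17846211 and 22487333 counts. Levels are given as CPM, counts scaled to library size with TMM factors. The comparisons against DMSO share their DMSO libraries. TSC22D3, a glucocorticoid target, was at 63.5 to 150 CPM in the 4 libraries with dexamethasone and at 10.7 to 15.5 CPM in the 4 without it. PGR, an estrogen target, was at 31.8 to 41.0 CPM in the 4 libraries with estradiol and at 2.47 to 8.91 CPM in the others, where dexamethasone replicate 1 was the highest. All 5 epithelial markers were detected, with a summed level of 3000 CPM or more in every library, and the 4 endometrial lineage markers summed to 513 CPM or more. Leukocyte markers summed to at most 2.74 CPM, with 1 of 4 at 0 in all libraries. Endothelial markers summed to at most 2.92 CPM, nearly all of it VWF, and PECAM1 and CDH5 had at most 1 count in any library. The 5 fibroblast markers summed to between 135 and 199 CPM, most of it COL1A1 and nearly all of the rest COL3A1. DCN, LUM and PDGFRB had at most 2 counts in any library.

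**Figure D1:**
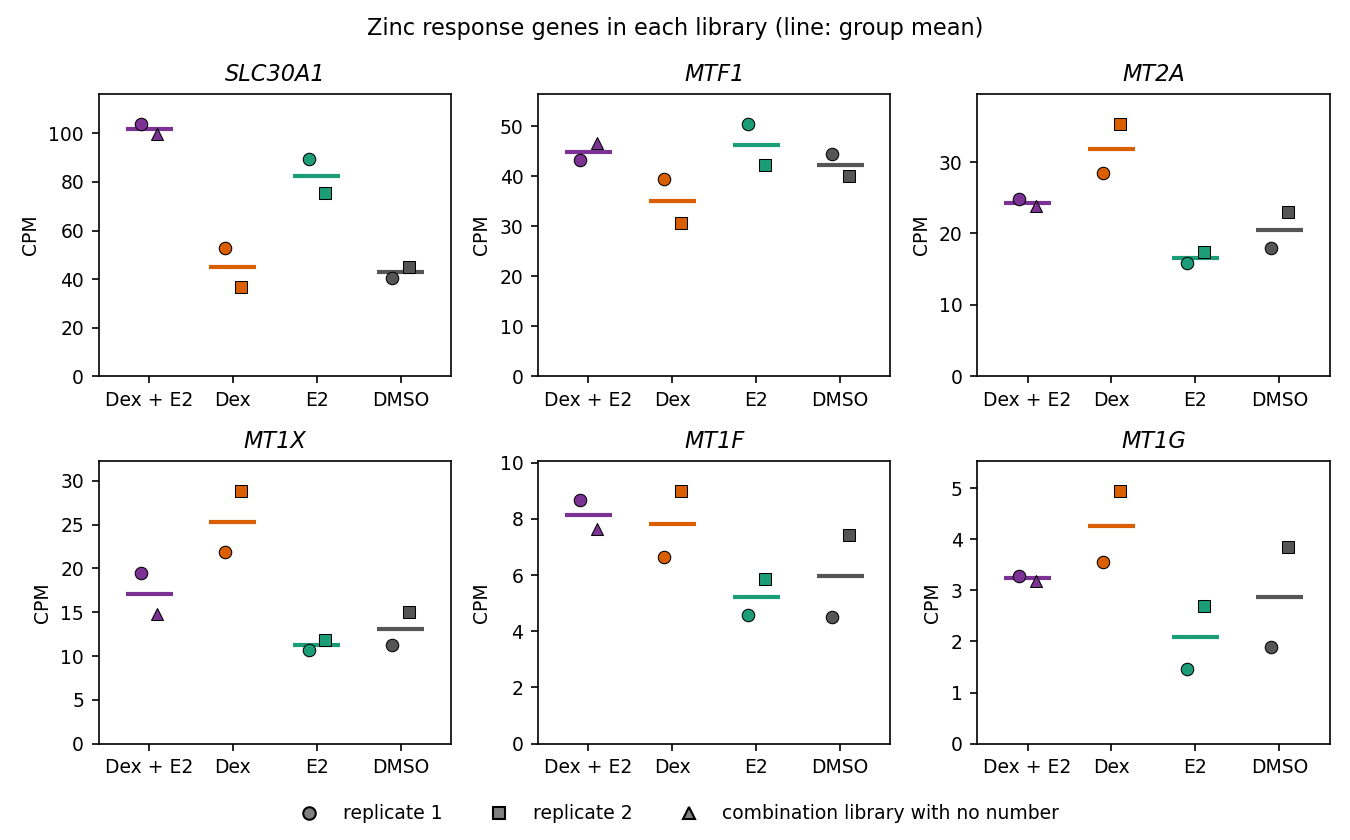
Level of each tested zinc response gene in every library, in CPM on a linear axis from 0, with 1 point per library and a line at the mean of the 2 libraries. SLC30A1 is above 75 CPM in the 4 libraries with estradiol and below 53 CPM in the 4 without it, whereas MT2A and MT1X are highest in the dexamethasone libraries.

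SLC30A1 had the clearest response. It was at 104 and 99.6 CPM in the combination libraries, 52.7 and 36.8 CPM in the dexamethasone libraries, 89.6 and 75.6 CPM in the estradiol libraries, and 40.3 and 45.2 CPM in the DMSO libraries. Every library with estradiol was above every library without it, and the share of all genes with this full order was not counted. Among all genes tested, 18.3% had both estradiol libraries above both DMSO libraries, and 24.8% had both combination libraries above both dexamethasone libraries. SLC30A1 averaged 82.6 ± 9.92 CPM with estradiol and 42.7 ± 3.44 CPM in DMSO (SD, n = 2 each), a log2 fold change of 0.95 ± 0.16 (SE) or 1.93-fold, with an adjusted p of 0.0102. Calls for this contrast made up 1.8% of all genes tested, 1.19% of them higher. Among the 169 genes called higher with estradiol, SLC30A1 was at rank 107 by size, below their median log2 fold change of 1.17. The call was lost without estradiol replicate 1 (log2 fold change 0.82, adjusted p = 0.137) or without estradiol replicate 2 (1.06, adjusted p = 0.066). In bulk RNA, more cells that express a gene and more RNA per cell cannot be told apart.

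In cells that also received dexamethasone the estradiol response of SLC30A1 was of similar size. It averaged 102 ± 3.08 CPM in the combination and 44.8 ± 11.3 CPM in dexamethasone (SD, n = 2 each), a log2 fold change of 1.18 ± 0.15 (SE) with an adjusted p of 0.00348. Against DMSO the combination was higher by 1.25 ± 0.16 on the log2 scale, or 2.38-fold (adjusted p = 0.00124). These calls held without each of the 8 libraries in turn, with adjusted p-values up to 0.031 against dexamethasone and up to 0.00824 against DMSO. The shares of all genes called were 2.67% for the combination against dexamethasone (0.824% higher) and 2.19% for the combination against DMSO (1.48% higher). The interaction, the effect of dexamethasone in cells with estradiol less its effect in cells without, was 0.23 ± 0.22 with an adjusted p of 0.9995. A difference of the estradiol response between the backgrounds was not detectable with this error. No member was called for the interaction by edgeR, DESeq2 or limma-voom, which called 0.0211%, 0.106% and 0.0211% of all genes in this order. At an unadjusted p under 0.05 by edgeR there were 0 members, against 5.16% of all genes.

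Dexamethasone did not give a call for SLC30A1, in cells without estradiol (0.07 ± 0.16, adjusted p = 0.917) or with it (0.30 ± 0.15, adjusted p = 0.843). The dexamethasone libraries differed among themselves, with replicate 1 at 52.7 CPM and replicate 2 at 36.8 CPM. Replicate 1 was also the one with the higher estrogen targets, with PGR at 8.91 CPM against 2.47 CPM in replicate 2 and GREB1 at 17.7 against 6.85 CPM. Without replicate 1 the estimate for dexamethasone against DMSO was -0.22, and without replicate 2 it was 0.31, so no direction can be given. The part of this difference between the libraries in the SLC30A1 values was not tested. Without replicate 1 the combination against dexamethasone was at 1.47 (adjusted p = 0.000793), and without replicate 2 at 0.94 (adjusted p = 0.0197).

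The promoter of SLC30A1 is printed here because MTF1 acts through metal response elements. It covers chr1:211579112-211579411 on the minus strand of GRCh38.p14, from 250 bases before to 50 after the transcription start in RefSeq, and capitals mark matches to the core of the element.
SLC30A1 promoter: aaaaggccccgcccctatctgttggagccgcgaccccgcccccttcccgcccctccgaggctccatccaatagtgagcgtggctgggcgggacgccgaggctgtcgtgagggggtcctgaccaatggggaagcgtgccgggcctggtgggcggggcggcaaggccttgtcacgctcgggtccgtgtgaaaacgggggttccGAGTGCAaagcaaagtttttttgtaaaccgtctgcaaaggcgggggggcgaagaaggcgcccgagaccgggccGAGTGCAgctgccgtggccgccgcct
The core was searched as TGCACNC or TGCGCNC on both strands. The window held 2 matches, at positions -49 to -43 and 24 to 30 from the start, and 8.6% of 35116 promoters of this length held 2 or more. The palindromic estrogen response element, GGTCA and TGACC with 3 bases between, was not in this window, and 0.057% of all promoters held it. Sequence outside the window was not searched.

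MTF1, which encodes the zinc sensor, gave no call. It was at 43.1 and 46.6 CPM in the combination libraries, 39.5 and 30.7 CPM with dexamethasone, 50.5 and 42.2 CPM with estradiol, and 44.5 and 39.9 CPM in DMSO. The dexamethasone libraries were the lowest, both below both DMSO libraries, a pattern held by 17.7% of all genes tested. The fitted change with dexamethasone was -0.26 ± 0.14 (adjusted p = 0.587). With estradiol it was 0.13 ± 0.14 (adjusted p = 0.855), and the combination against dexamethasone gave 0.35 ± 0.14 (adjusted p = 0.228, unadjusted p = 0.0269). The MTF1 promoter (chr1:37859543-37859842, minus strand, GRCh38.p14) held 0 matches to the metal response element core, and 29.6% of all promoters held at least 1.

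The metallothionein members are close copies of each other, which bears on how their reads can be told apart. Their coding sequences in GENCODE v29 are each 186 bases long, and capitals mark the bases that differ from MT2A.
MT2A: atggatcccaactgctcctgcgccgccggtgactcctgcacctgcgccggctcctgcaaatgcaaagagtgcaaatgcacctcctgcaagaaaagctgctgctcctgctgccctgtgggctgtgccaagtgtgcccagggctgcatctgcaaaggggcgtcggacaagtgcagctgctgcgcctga
MT1X: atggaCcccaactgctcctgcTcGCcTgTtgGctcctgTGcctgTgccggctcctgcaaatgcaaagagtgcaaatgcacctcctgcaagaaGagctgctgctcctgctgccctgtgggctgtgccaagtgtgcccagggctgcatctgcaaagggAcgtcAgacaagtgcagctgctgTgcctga
MT1F: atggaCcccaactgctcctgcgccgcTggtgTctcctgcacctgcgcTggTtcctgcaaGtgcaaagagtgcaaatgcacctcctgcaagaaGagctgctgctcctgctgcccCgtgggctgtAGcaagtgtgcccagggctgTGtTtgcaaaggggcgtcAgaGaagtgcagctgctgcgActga
MT1G: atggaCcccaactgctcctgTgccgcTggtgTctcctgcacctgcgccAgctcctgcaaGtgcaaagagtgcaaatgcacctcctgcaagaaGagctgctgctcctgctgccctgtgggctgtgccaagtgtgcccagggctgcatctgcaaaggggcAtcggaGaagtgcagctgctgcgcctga
MT1E: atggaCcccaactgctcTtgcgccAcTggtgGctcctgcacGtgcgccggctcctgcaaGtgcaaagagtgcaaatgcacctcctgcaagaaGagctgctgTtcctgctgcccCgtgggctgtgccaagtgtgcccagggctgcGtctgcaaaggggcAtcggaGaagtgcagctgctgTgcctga
Identity to MT2A was 95.2% for MT1G, 92.5% for MT1X and MT1E and 91.4% for MT1F, and the lowest identity of any pair was 88.7%, between MT1X and MT1F. Over whole transcripts, untranslated parts included, an exact match in another gene was held by 3.02% of the windows of 50 bases of MT2A, 18.3% of those of MT1X, 1.22% of those of MT1F, 16.5% of those of MT1G and 7.1% of those of MT1E. In MT1X, 18.1% of the annotated exon length is shared with the same-strand gene AC026461.1, which is among the genes that its windows match. The windows pool all annotated transcripts of a gene, so their shares do not rank these genes by how uncertain their counts are. Counts of these genes are uncertain where reads fall in shared stretches, because the labels do not tell how the counting treated them.

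Dexamethasone raised MT1X, and the other 3 tested metallothioneins had positive estimates that did not pass the test. MT1X was at 21.8 and 28.8 CPM in the dexamethasone libraries and at 11.2 and 14.98 CPM in the DMSO libraries. Both dexamethasone libraries were above both DMSO libraries, as for 18.5% of all genes tested. MT1X averaged 25.3 ± 4.93 CPM with dexamethasone and 13.1 ± 2.65 CPM in DMSO (SD, n = 2 each), a log2 fold change of 0.94 ± 0.19 or 1.92-fold, with an adjusted p of 0.0462. In this contrast 0.965% of all genes were called, and 0.908% were called higher. The call lay close to the threshold. It was lost without dexamethasone replicate 2, DMSO replicate 1 or either estradiol library (adjusted p = 0.114 to 0.284, log2 fold change 0.74 to 0.95), with limma-voom (adjusted p = 0.0509, 0.915% of all genes called) and with only the libraries of these groups in the fit (adjusted p = 0.143, 0.457% called).

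MT2A, the metallothionein with the most counts, was at 28.4 and 35.4 CPM with dexamethasone and at 17.9 and 23.0 CPM in DMSO. Both dexamethasone libraries were above both DMSO libraries, as for 18.5% of all genes tested. The estimate for MT2A was 0.64 ± 0.15, or 1.55-fold, with an adjusted p of 0.0908. DESeq2 called it (adjusted p = 0.0208) and MT1X, in a test that called 1.3% of all genes. MT1F was at 6.65 and 8.98 CPM with dexamethasone and at 4.51 and 7.44 CPM in DMSO, and MT1G at 3.56 and 4.94 CPM with dexamethasone and at 1.89 and 3.84 CPM in DMSO. The libraries of these groups overlapped for MT1F and for MT1G, with estimates of 0.38 ± 0.24 (adjusted p = 0.672) and 0.55 ± 0.34 (adjusted p = 0.648). The DMSO libraries set much of their size. Without DMSO replicate 1 the estimates were 0.065 for MT1F and 0.14 for MT1G, and without DMSO replicate 2 they were 0.79 and 1.16. At such levels the test has little reach. In simulated data for this contrast, over 13916 genes, it recovered 6% of 1.5-fold and 54% of 2-fold changes of genes at 2 to 10 CPM, and 56% and 100% of those at 10 to 100 CPM.

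Beside estradiol, dexamethasone gave positive estimates for the same metallothioneins, with 0 calls. The combination libraries had 24.8 and 23.8 CPM of MT2A and the estradiol libraries 15.9 and 17.4 CPM, an estimate of 0.54 ± 0.15 (adjusted p = 0.342). MT1X was at 19.4 and 14.8 CPM in the combination and at 10.7 and 11.9 CPM in estradiol (0.60 ± 0.19, adjusted p = 0.524). MT1F was at 8.65 and 7.63 CPM in the combination and at 4.56 and 5.87 CPM in estradiol (0.63 ± 0.24, adjusted p = 0.673). For MT1G the values were 3.28 and 3.19 CPM in the combination and 1.46 and 2.69 CPM in estradiol (0.61 ± 0.36, adjusted p = 0.914). In each of these genes, and in SLC30A1, both combination libraries were above both estradiol libraries, a pattern held by 18.1% of all genes tested. In this contrast 0.275% of all genes were called by edgeR. At an unadjusted p under 0.05, 3 members were higher, MT2A, MT1X and MT1F, against 3.06% of all genes. DESeq2 and limma-voom called 0 members here, with 0.528% and 0.268% of all genes called, and a fit of only these 4 libraries called MT2A (adjusted p = 0.0304, with 1.08% of all genes called).

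No difference between the dexamethasone effects with and without estradiol was called for the metallothioneins. The interaction was -0.09 ± 0.21 for MT2A, -0.35 ± 0.27 for MT1X, 0.26 ± 0.34 for MT1F and 0.06 ± 0.49 for MT1G, each with an adjusted p of 0.9995. Averaged over both backgrounds, a contrast chosen after the values were seen, the dexamethasone effect was 0.59 ± 0.10 for MT2A (adjusted p = 0.0194) and 0.77 ± 0.13 for MT1X (adjusted p = 0.0193). It was 0.50 ± 0.17 for MT1F (adjusted p = 0.332) and 0.58 ± 0.25 for MT1G (adjusted p = 0.459). This average called 1.07% of all genes.

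**Figure D2:**
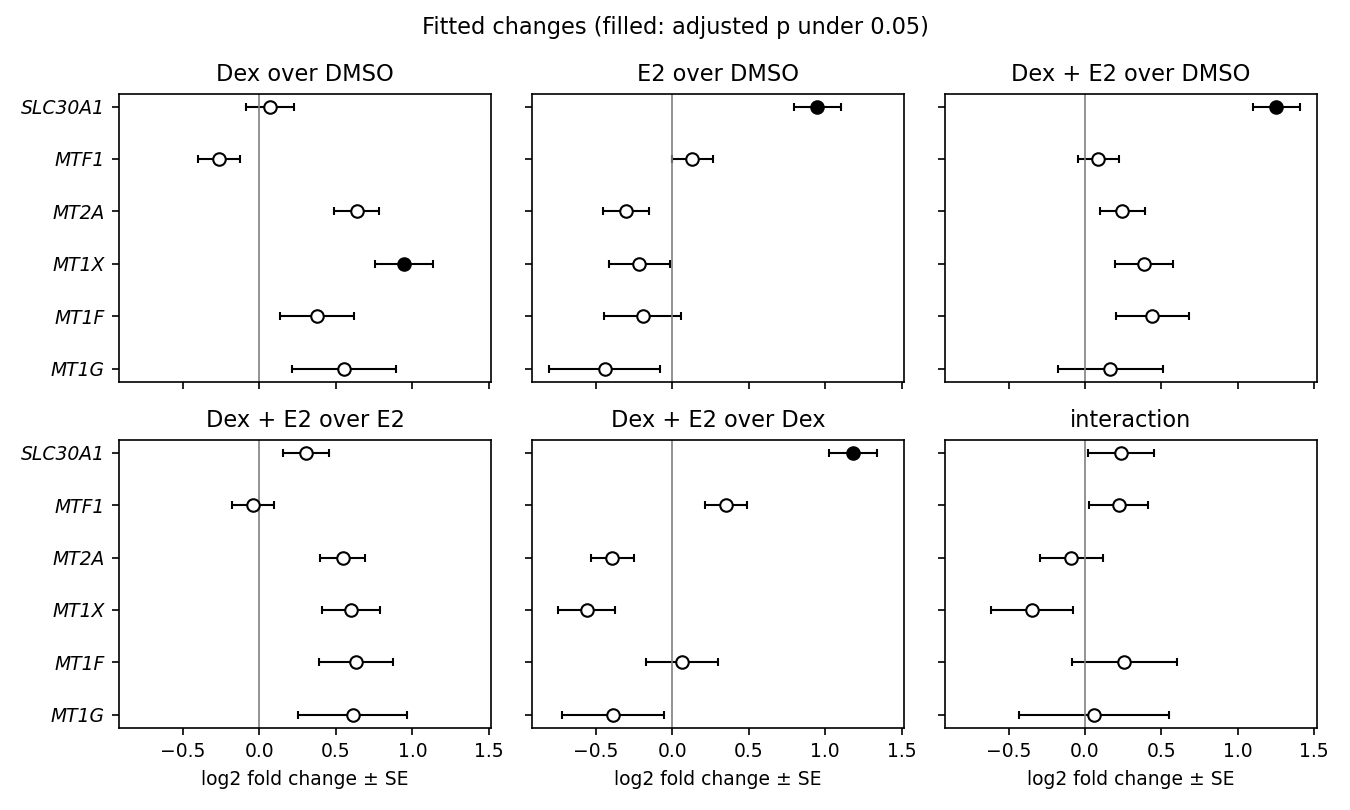
Fitted log2 fold change with its standard error for the 6 tested genes in the 6 contrasts, with filled points at an adjusted p under 0.05. SLC30A1 is filled in the contrasts that add estradiol (0.95, 1.25 and 1.18), and MT1X is filled for dexamethasone over DMSO (0.94).

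Against DMSO, estradiol gave negative estimates for the 4 tested metallothioneins, and none passed the test or had an unadjusted p under 0.05. DESeq2 and limma-voom called none of them. In this contrast edgeR, DESeq2 and limma-voom called 1.8%, 2.39% and 1.77% of all genes, and 11.4% had an unadjusted p under 0.05 by edgeR. The estimates were -0.30 ± 0.15 for MT2A (adjusted p = 0.499), -0.21 ± 0.20 for MT1X (0.822), -0.19 ± 0.25 for MT1F (0.899) and -0.44 ± 0.37 for MT1G (0.792). The direction rested on 1 library for 3 of these, since without DMSO replicate 2 the estimates were 0.012 for MT1X, 0.22 for MT1F and 0.17 for MT1G. Of these, MT2A had both estradiol libraries (15.9 and 17.4 CPM) below both DMSO libraries (17.9 and 23.0 CPM), as did 17.9% of all genes tested. In cells with dexamethasone, the combination against dexamethasone was -0.39 ± 0.14 for MT2A (adjusted p = 0.199), -0.56 ± 0.18 for MT1X (0.156), 0.07 ± 0.24 for MT1F (0.923) and -0.39 ± 0.33 for MT1G (0.616). MT2A, MT1X and MT1G had both combination libraries below both dexamethasone libraries, as did 25% of all genes tested. At an unadjusted p under 0.05 the members lower in this contrast were MT2A and MT1X, against 9.42% of all genes, and SLC30A1 and MTF1 were higher, against 7.27%. Averaged over both backgrounds, the estradiol effect was -0.35 ± 0.10 for MT2A (adjusted p = 0.0846) and 1.07 ± 0.11 for SLC30A1 (adjusted p = 0.000308), in a contrast that called 5.8% of all genes.

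No metallothionein was called in the combination against DMSO by edgeR, DESeq2 or limma-voom. These tests called 2.19%, 2.62% and 2.15% of all genes in this order, and 10.8% had an unadjusted p under 0.05 by edgeR. The estimates were 0.24 ± 0.15 for MT2A, 0.38 ± 0.19 for MT1X, 0.44 ± 0.24 for MT1F and 0.17 ± 0.34 for MT1G, with adjusted p-values of 0.534 to 0.944 and unadjusted p-values above 0.05. For MT2A and MT1F both combination libraries were above both DMSO libraries, as for 19.8% of all genes tested. For MT1X and MT1G the libraries overlapped.

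The tested metallothioneins moved together from library to library. Their summed level was 56.1 and 49.4 CPM in the combination, 60.4 and 78.1 CPM with dexamethasone, 32.6 and 37.8 CPM with estradiol, and 35.6 and 49.3 CPM in DMSO. Relative to the DMSO mean, the mean sum was 1.24-fold in the combination, 1.63-fold with dexamethasone and 0.83-fold with estradiol. MT2A gave 44.1% to 50.4% of it in each library, MT1X 30% to 36.9%, MT1F 11% to 15.5% and MT1G 4.49% to 7.8%. The share of MT1X was highest in the dexamethasone libraries (36.1% and 36.9%) and that of MT1F lowest there (11% and 11.5%). Over the 8 libraries Pearson's r of log2 CPM was between 0.81 and 0.98 among the 4 metallothioneins, with MT2A and MT1X the closest pair, and between -0.82 and -0.62 for MTF1 against each of them. For SLC30A1 it was between -0.36 and 0.02 against each metallothionein and 0.68 against MTF1. The libraries share treatments, and the paralogs share sequence, so these values are descriptions.

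**Figure D3:**
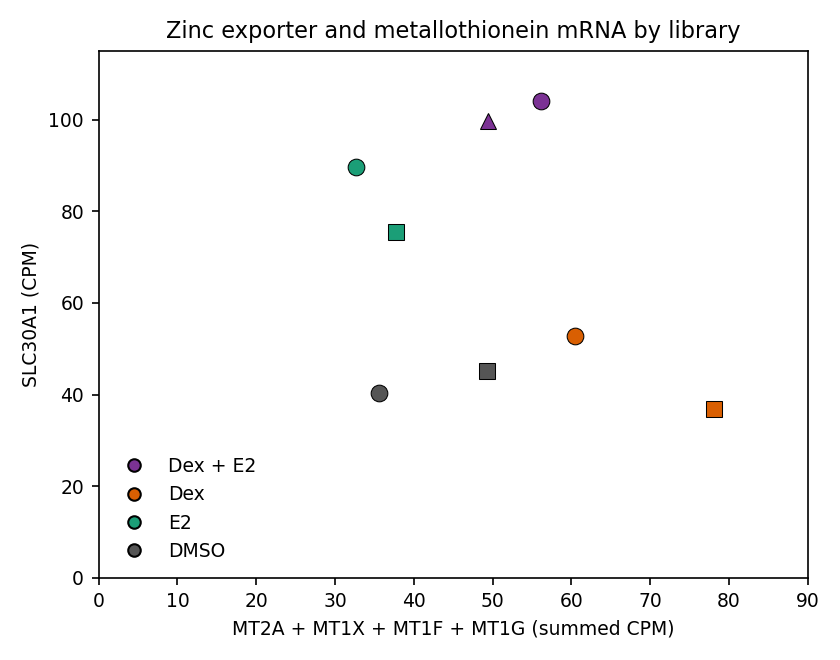
SLC30A1 (vertical axis, CPM) against the summed level of MT2A, MT1X, MT1F and MT1G (horizontal axis, CPM), with 1 point per library, circles for replicate 1, squares for replicate 2 and a triangle for the combination library with no number. The libraries with estradiol lie above 75 CPM of SLC30A1, and the dexamethasone libraries lie furthest right, at 60.4 and 78.1 CPM of summed metallothionein.

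The ratio of SLC30A1 to the summed metallothioneins, both in CPM, was 1.85 and 2.02 in the combination, 0.873 and 0.472 with dexamethasone, 2.75 and 2.00 with estradiol, and 1.13 and 0.917 in DMSO. The ratio was highest in the estradiol and combination libraries and lowest in the dexamethasone libraries, and it has no test here.

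Libraries of a group differed for the metallothioneins in a way that also ran with transcript length. All 4 were higher in replicate 2 than in replicate 1 with dexamethasone, with estradiol and in DMSO. In the combination all 4 were lower in the library with no number than in replicate 1. Their coding transcripts are short, with median lengths of 0.406 to 0.683 kb in GENCODE v29, whereas those of SLC30A1 and MTF1 are 5.47 and 7.97 kb. Over 2933 tested genes with a median length under 1 kb, the median log2 difference of replicate 2 minus replicate 1 was 0.06 with dexamethasone, 0.06 with estradiol and 0.08 in DMSO. Over 1151 genes above 5 kb it was -0.13, -0.11 and -0.11 in the same order. In the combination the library with no number minus replicate 1 gave medians of -0.05 for short and 0.12 for long transcripts. For dexamethasone against DMSO the medians were 0.04 for short and -0.12 for long transcripts, and for estradiol against DMSO -0.02 and -0.01. For the combination they were 0.01 and -0.03 against DMSO, 0.02 and -0.02 against estradiol and -0.02 and 0.09 against dexamethasone, and for the interaction -0.02 and 0.08. The part of this in the values of the metallothioneins, MTF1 and SLC30A1 was not tested.

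Levels of different genes can be compared per kilobase, but here the order depended on which length was taken. With the median length of the coding transcripts, DMSO levels were MT2A at 30.0 ± 5.22, MT1X at 26.5 ± 5.36, MT1F at 10.8 ± 3.74, SLC30A1 at 7.81 ± 0.63, MT1G at 7.07 ± 3.40 and MTF1 at 5.29 ± 0.41 CPM per kb (SD, n = 2 each). With the length of all annotated exons merged, they were MT2A at 15.8 ± 2.75, SLC30A1 at 7.81 ± 0.63, MT1X at 7.39 ± 1.49, MTF1 at 5.26 ± 0.40, MT1G at 3.82 ± 1.84 and MT1F at 3.16 ± 1.10 CPM per kb. MT2A was first on both scales, and the place of SLC30A1 among the metallothioneins was not settled. With dexamethasone MT1X was at 51.2 ± 9.99 and MT2A at 46.6 ± 7.19 CPM per kb by transcript length, within their spread, but at 14.3 ± 2.78 and 24.5 ± 3.78 CPM per kb by merged exons. With estradiol SLC30A1 was at 15.1 ± 1.81 CPM per kb on both scales, below MT2A at 24.3 ± 1.53 by transcript length and above it, at 12.8 ± 0.80, by merged exons. In the combination SLC30A1 was at 18.6 ± 0.56 CPM per kb on both scales, beside MT2A at 35.5 ± 1.00 by transcript length and 18.7 ± 0.53 by merged exons. Differences of 1 gene between groups do not depend on this choice.

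Most genes of the family were listed at or near 0. MT1E had 0 counts in all 8 libraries, and with 3 counts as the limit that a count of 0 allows, its level was at most 0.132 to 0.169 CPM per library, for counting error only. A 0 in this table cannot be read as absent expression, since SLC39A7, a zinc transporter used by most cells, was also at 0 counts in all 8 libraries, and whether reads of MT1E were lost in the counting was not tested. Of 12 other metallothionein genes and pseudogenes, 11 were in the table and 0 passed the filter. In these, 9 had 0 counts in every library. MT3, which is best known from brain, had 3 to 11 counts per library, and the pseudogene MT1DP had 2 to 10.

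The promoters of MT2A and MT1X, the metallothioneins with the most counts, are shown for the same elements. They are the members of the family with an entry in the RefSeq promoter table (GRCh38.p14, plus strand, 250 bases before to 50 after the start), and capitals mark the metal response element core as above.
MT2A promoter, chr16:56608334-56608633: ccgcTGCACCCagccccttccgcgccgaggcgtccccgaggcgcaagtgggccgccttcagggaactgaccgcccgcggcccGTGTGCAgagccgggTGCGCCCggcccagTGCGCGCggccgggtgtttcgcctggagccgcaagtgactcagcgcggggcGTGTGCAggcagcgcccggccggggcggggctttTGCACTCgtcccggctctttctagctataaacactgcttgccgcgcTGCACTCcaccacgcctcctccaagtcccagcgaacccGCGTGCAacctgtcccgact
MT1X promoter, chr16:56682220-56682519: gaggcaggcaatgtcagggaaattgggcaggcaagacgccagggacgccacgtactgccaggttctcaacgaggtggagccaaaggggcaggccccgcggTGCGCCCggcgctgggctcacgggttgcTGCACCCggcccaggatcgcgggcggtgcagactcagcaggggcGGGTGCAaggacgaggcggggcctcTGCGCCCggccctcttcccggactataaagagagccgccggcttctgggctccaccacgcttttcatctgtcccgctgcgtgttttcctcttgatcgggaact
The MT2A window held 8 matches, a number reached by 7 of 35116 promoters (0.0199%), and the MT1X window held 4, a number reached by 0.601%. Each also held a TATAAA box, 29 and 30 bases before the start, found in 11.5% of all promoters, and 1 match to the antioxidant response element TGACNNNGC, found in 13.3%. Neither window held the glucocorticoid response element, AGAACA and TGTNCN with 3 bases between (0.0911% of promoters), or the hexamer AGAACA alone (14.8%). Sequence further than 250 bases before the start and other spellings were not searched, so the absence of such an element near these genes is not shown. All motifs were searched on both strands, and in these windows no match overlapped another. The MT1X matches lay at -150 to -144, -122 to -116, -78 to -72 and -53 to -47 from the start. A match of letters is a description of the window and not a measured site.

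Lists of other zinc, copper and oxidant response genes were set beside all genes tested. Adjusted calls took 0.0211% to 2.67% of all genes in the 6 contrasts. An unadjusted p under 0.05 was held by 9.84% with dexamethasone, 11.4% with estradiol, 10.8%, 6.37% and 16.7% with the combination against DMSO, estradiol and dexamethasone, and 5.16% for the interaction. Among the zinc importers 7 of 60 gene and contrast pairs had an unadjusted p under 0.05, and among the other metal and oxidant response genes 8 of 60. The counts of the lists lay near such shares, highest for the zinc exporters, and were not tested against them, so no list is set apart. The 6 tested SLC30 genes other than SLC30A1, listed here as zinc exporters, had 0 calls in the 6 contrasts by edgeR, DESeq2 or limma-voom. Of their 36 gene and contrast pairs, 6 had an unadjusted p under 0.05, beside the shares of 5.16% to 16.7% over all genes. SLC30A2, a zinc transporter of vesicles, had the smallest p-values. It was at 4.67 and 6.23 CPM with dexamethasone and at 2.94 and 2.24 CPM in DMSO, an estimate of 1.07 ± 0.26 (adjusted p = 0.123), and at 4.75 and 3.23 CPM in the combination and 1.75 and 2.21 CPM in estradiol (1.00 ± 0.27, adjusted p = 0.345). Both dexamethasone libraries were above both DMSO libraries, and both combination libraries above both estradiol libraries, patterns held by 18.5% and 18.1% of all genes tested. SLC30A4 came next, with 0.63 ± 0.19 for the combination against dexamethasone (adjusted p = 0.121).

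Of the 10 tested SLC39 genes, which bring zinc into the cytosol, edgeR called 1 in 1 contrast, SLC39A14 (ZIP14), which also carries iron and manganese. It was at 246 and 250 CPM in the combination and at 180 and 185 CPM in DMSO, with 202 and 193 CPM in dexamethasone and 231 and 220 CPM in estradiol. Both combination libraries were above both DMSO libraries, as for 19.8% of all genes tested. The change in the combination against DMSO was 0.44 ± 0.09, or 1.36-fold, with an adjusted p of 0.0204 against 2.19% of all genes called. The call was lost without either combination library or either DMSO library (adjusted p = 0.0708 to 0.205), and in a fit of only these groups (0.0524). Limma-voom made the same call, and DESeq2 made it and also called SLC39A14 in the combination against dexamethasone, where edgeR gave 0.33 ± 0.09 (adjusted p = 0.0793). With estradiol alone the estimate was 0.31 ± 0.09 (adjusted p = 0.133). SLC39A8 (ZIP8), its close relative, was at 349 and 342 CPM with estradiol and at 265 and 296 CPM in DMSO, an estimate of 0.30 ± 0.09 (adjusted p = 0.196).

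Of 9 tested copper handling genes 0 were called in any of the 6 contrasts by edgeR, DESeq2 or limma-voom, and 4 of 54 pairs had an unadjusted p under 0.05, beside the same shares over all genes. SLC31A2, a copper transporter of internal membranes, was at 7.94 and 7.18 CPM in the combination and at 4.36 and 5.25 CPM in DMSO (0.65 ± 0.17, adjusted p = 0.0892). SLC31A1, the copper importer of the plasma membrane, gave 0.29 ± 0.10 for the combination against dexamethasone (adjusted p = 0.164). Of 10 other tested genes of the metal and oxidant response, 1 was called in 1 contrast by edgeR, DESeq2 and limma-voom, in which edgeR called 2.67% of all genes. SRXN1, which encodes sulfiredoxin, was at 145 and 136 CPM in the combination and at 105 and 103 CPM in dexamethasone (0.44 ± 0.09, adjusted p = 0.0236), with 130 and 133 CPM in DMSO. The dexamethasone libraries were the lowest of all groups. This call was lost without either combination or either dexamethasone library (adjusted p = 0.0637 to 0.242). HMOX1, heme oxygenase 1, which heavy metals induce, was at 1.42 and 1.17 CPM in the combination and at 1.99 and 2.43 CPM in DMSO (-0.77 ± 0.27, adjusted p = 0.275).

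**Figure D4:**
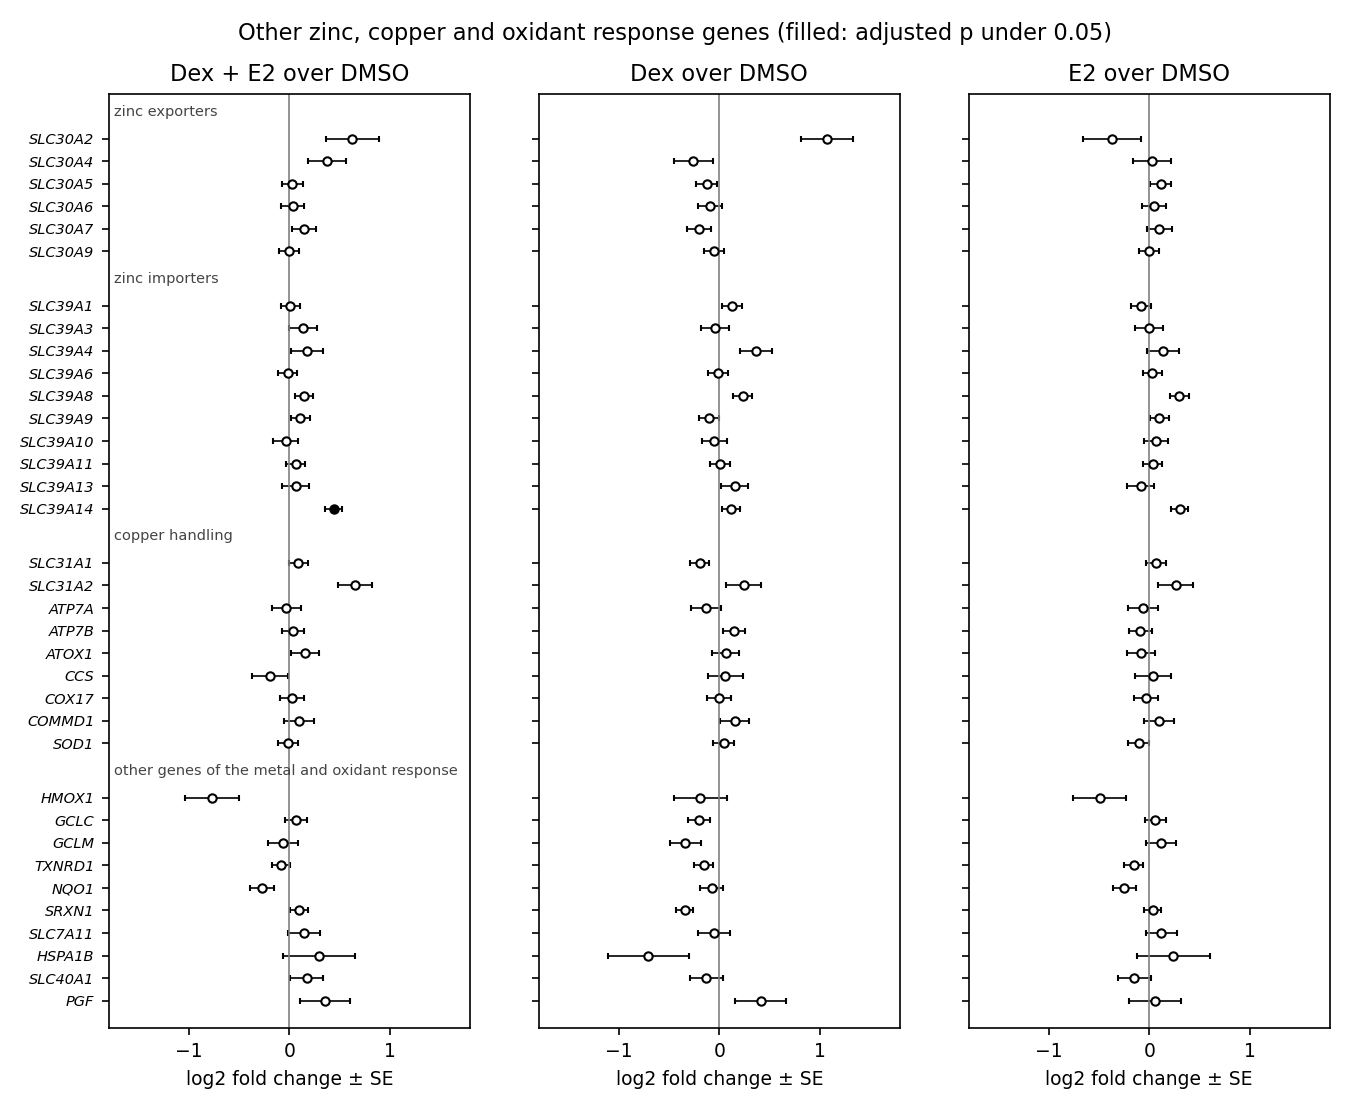
Fitted log2 fold change with its standard error against DMSO for the tested members of 4 lists of zinc, copper and oxidant response genes, in the combination, dexamethasone and estradiol. SLC39A14 in the combination (0.44) is the filled point, at an adjusted p under 0.05, and SLC30A2 has the largest estimate with dexamethasone (1.07).

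The genes most like each member were taken by Pearson's r of log2 CPM over the 8 libraries among 11973 genes. SLC30A1 was followed most closely by DBR1, a lariat debranching enzyme (0.98), the transcription factor gene SALL1 (0.98) and E2F6, a repressor of the E2F family (0.98). SALL1 averaged 16.5 CPM in the combination, 7.58 with dexamethasone, 12.2 with estradiol and 7.29 in DMSO. Pearson's r does not weigh the size of a change, and DBR1 averaged 30.4, 27.3, 29.8 and 26.6 CPM in the same order. MT2A was closest to the glycine transporter gene SLC6A9 (0.99), PDLIM1 (0.98) and CHAC1 (0.98), and MT1X to PLLP (0.99), CKAP4 (0.98) and ITM2C (0.98). PLLP, which encodes plasmolipin, averaged 6.6 CPM in the combination, 10.8 with dexamethasone, 4.38 with estradiol and 5.27 in DMSO. MTF1 was closest to TOR1AIP2, TBC1D4 and HERC4 (each 0.99), MT1F to SLC35A2, TMEM256 and SLC41A3 (0.97 to 0.98), and MT1G to DNAJC18, MIF4GD and S100A13 (each 0.99). With so many genes and 8 libraries that share treatments, values of this size are a description only.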

How the data were processed

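The authors deposited raw counts per gene and a normalised table for the same 8 libraries, which were made with a stranded mRNA kit per the labels' protocols. HISAT2 2.0.4, featureCounts 1.5.1 of Subread, DESeq2 1.14.1 and build hg19 appear in the submitters' processing notes. How strand and multi-mapped reads were handled, and with which annotation, is not given in the sources used here. In the deposited normalised table the signal is the count divided by 1 factor per library, and it served as another scaling of levels.

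Columns were matched to samples by name. Both combination columns carry the number 1, so the one that does not match a label is used as a library with no number.

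Counts were filtered with filterByExpr (14201 of 26364 genes kept), scaled by TMM and tested with edgeR 4.0.16 (glmQLFit, glmQLFTest; R 4.3.3) over all 8 libraries and 4 groups, with 4 residual degrees of freedom. P-values were Benjamini-Hochberg adjusted per contrast over all genes. SE is the absolute log2 fold change divided by the root of the F statistic. DESeq2 1.42.0, limma-voom (limma 3.58.1), other scalings, no filter, smaller fits, a replicate block and leaving out each library were the alternatives. The test was tested on simulated data. Members, gene lists and the rule for named genes (all members, and in each list those called or with the smallest p) were chosen with earlier results of these data known. Lengths and coding sequences are from GENCODE v29 and promoters from RefSeq. Counts come from hg19, so only promoters carry coordinates. RefSeq promoter entries matched 4 of 7 members.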

Additional observations from a re-analysis of the deposited data

How the results depend on the processing

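Of 486 fold changes of the members under the alternatives, 454 kept their direction and their side of the threshold, 8 lost and 6 gained a call, and 18 changed sign, all of the 18 on leaving out a library. All 36 ratios of levels moved by less than the spread between replicates under other scalings. For dexamethasone against DMSO the members called, 1 in the test reported, numbered 2 with no filter on low counts, 2 with DESeq2 and 2 with the effect averaged over both backgrounds (chosen after seeing the data). They numbered 0 with limma-voom and 0 with only the libraries of the groups compared. For the combination against estradiol they numbered 1, against 0, with only the libraries of those groups (1.08% of all genes called). For dexamethasone against DMSO, the shares of all genes called were 1.26% with no filter, 1.3% with DESeq2 and 1.07% for the average. They were 0.915% with limma-voom and 0.457% with only the libraries of the groups compared. In these alternatives MT2A was gained and MT1X lost. Calls of members also changed on leaving out a library, which leaves 1 library in a group. The call of SLC30A1 with estradiol was lost without either estradiol library, where the calls over all genes also fell. Its log2 fold change was then 0.82 without estradiol replicate 1 and 1.06 without estradiol replicate 2. The cause was not tested.

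On leaving out a library, estimates that reversed ran from -0.22 to 0.31 for SLC30A1 with dexamethasone. With estradiol they ran from -0.0017 to 0.25 for MTF1, -0.41 to 0.012 for MT1X, -0.50 to 0.22 for MT1F and -0.99 to 0.17 for MT1G. For MT1G in the combination against DMSO they ran from -0.25 to 0.78, for MTF1 against estradiol from -0.16 to 0.091, and for MT1F against dexamethasone from -0.14 to 0.29. For the interaction they ran from -0.0022 to 0.52 (SLC30A1), -0.29 to 0.076 (MT2A), -0.16 to 0.57 (MT1F) and -0.56 to 0.60 (MT1G). None of these estimates was a call.

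Same-numbered libraries deviated together weakly (r of 0.049 for dexamethasone and estradiol, 0.243 for dexamethasone and DMSO, 0.153 for estradiol and DMSO), so the numbers are not shown to pair them. With a replicate block over these 6 libraries, 2 members were called with dexamethasone, MT1X and MT2A, among 239 genes, and 1 with estradiol among 441. This fit tested 13984 genes, of which 1.71% were called with dexamethasone and 3.15% with estradiol. No paired fit was made for the combination, since 1 of its columns carries no number.

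Counts over all genes that moved by more than 1.5 times were, for dexamethasone, 137 against 63 with only those groups, 253 with no filter and 78 without DMSO replicate 1. For estradiol they were 256 against 442 with no filter and 58 at the lowest on leaving out a library, and 824 for the average over both backgrounds. For the combination they were 311 against 157 at the lowest against DMSO, 39 against 151 with only those groups, 132 with no filter, 75 with DESeq2 and 10 to 68 on leaving out a library against estradiol, and 379 against 658 with no filter and 89 at the lowest against dexamethasone. For the interaction, 3 stood against 15 with DESeq2, 32 with no filter and 1 to 10 on leaving out a library. Groups of 2 limit what a count of 0 calls can show, and at 2 to 10 CPM, where MT1F and MT1G lie, a 1.5-fold change is mostly missed.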
